A study of Mus musculus with 21 samples.

Results

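Sox5, Sox6 and Sox13 are the 3 genes of the SOXD group of transcription factors, and their chromatin was examined in mouse embryonic stem cells in which another SOX factor, Sox7, was switched on. Every ChIP, input and ATAC peak inside the 3 gene bodies or within 50 kb of them was taken, on GRCm38 (mm10), and the genes themselves were chosen on their peaks in these same lists. This gave 44 of 51264 merged ATAC regions and 8 of 4548 merged anti-Myc ChIP regions. A region is a run of peaks from the libraries of 1 assay that overlap by 1 bp or more. Because these peaks were known when the genes were picked, the values below are a description and carry no test.

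The cells were the A2lox-Sox7-Myc line, made from E14Tg2a, and all samples were embryoid bodies, aggregates of differentiating cells, at day 4. In this line doxycycline turns on a Myc-tagged Sox7. Doxycycline at 1 µg/ml was present for the last 24 h in the induced groups, and the uninduced groups of the same line received none. Anti-Myc ChIP-seq, on unsorted cells, covered 4 uninduced samples, 4 induced samples and 1 input sample without antibody. The input sample received no doxycycline, so there was no input from induced cells. Anti-Myc ChIP reports the tagged protein and not the cells' own Sox7. ATAC-seq, which cuts accessible DNA with a transposase, covered PDGFRα+FLK1+ cells (CPC, cardiac progenitors) and PDGFRα-FLK1+ cells (EPC, endothelial progenitors). Each cell type had 2 samples without and 2 with doxycycline. The growth protocol also describes PDGFRα+FLK1- cells, which is at odds with the sample characteristics used here for the groups. All groups come from 1 engineered line, and the labels do not say whether replicates were separate cultures. RNA levels of the 3 genes were not analysed here.

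Peaks numbered 772 to 2807 per ChIP list, 689 in the input list and 23068 to 30732 per ATAC list. They hold no read counts, so depth is unknown, and a peak missing from a list can also mean a shallower library. Fewer cells with an open site and a less open site per cell cannot be told apart either. Uninduced ChIP lists 2 and 4 shared 585 peak starts, 75.8% of the shorter list, and were counted as 1 library. The genes of the sorting receptors had peaks at 1 or 2 of 2 regions in the Pdgfra body, and at 1 to 3 of 3 regions in the Kdr (FLK1) body, in each ATAC library. Both sorts are FLK1+, so Kdr cannot serve as a check on the sort. The number of Pdgfra regions did not separate the lists of the 2 sorts. Only numbers of regions were compared at these genes.

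SOX proteins bind DNA through an HMG box, which recognises short sequences with an ACAAT core and bends the helix. The SOXD proteins carry in addition a coiled coil through which they pair with each other, and they have no known activation domain of their own, so they act with partners. Sox5 and Sox6 are best known as the partners of Sox9 in cartilage formation. Sox6 also silences embryonic globin genes in red cell precursors, and Sox13 is known from T cells. Sox7 belongs to the SOXF group, which acts in endothelium and endoderm.

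RefSeq (GRCm38.p6) places all 3 genes on the minus strand, so the 5' end of each is its upper coordinate. Sox5 spans chr6:143828425-144782287 (953.9 kb), Sox6 chr7:115470872-116040776 (569.9 kb) and Sox13 chr1:133382300-133424459 (42.2 kb). Exons and introns were not used here. The RefSeq promoter table gives 8 start sites for these genes, 6 of them for Sox6, each with the 250 bases before and the 50 bases after the start. An ATAC region covered 2 of the 8. Among all 21263 promoters in the table, 58.9% lay under an ATAC region of at least 1 list. The 2 covered promoters and the single listed Sox5 promoter are printed because they differ in base composition and in accessibility, with every CpG in capitals.
Sox13, chr1:133424163-133424462, minus strand: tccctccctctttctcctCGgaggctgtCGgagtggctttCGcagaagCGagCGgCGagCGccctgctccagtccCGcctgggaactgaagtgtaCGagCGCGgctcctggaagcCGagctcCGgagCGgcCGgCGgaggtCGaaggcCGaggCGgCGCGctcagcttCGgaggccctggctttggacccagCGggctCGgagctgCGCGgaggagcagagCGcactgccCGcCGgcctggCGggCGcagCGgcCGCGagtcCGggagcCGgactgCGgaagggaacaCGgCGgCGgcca
Sox6, chr7:116030998-116031297, minus strand: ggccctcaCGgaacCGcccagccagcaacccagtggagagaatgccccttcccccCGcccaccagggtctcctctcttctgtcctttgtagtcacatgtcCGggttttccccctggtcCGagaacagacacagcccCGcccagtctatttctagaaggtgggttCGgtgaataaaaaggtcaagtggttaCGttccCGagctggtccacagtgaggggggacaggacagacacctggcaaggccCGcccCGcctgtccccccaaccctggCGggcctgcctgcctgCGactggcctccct
Sox5, chr6:143947057-143947356, minus strand: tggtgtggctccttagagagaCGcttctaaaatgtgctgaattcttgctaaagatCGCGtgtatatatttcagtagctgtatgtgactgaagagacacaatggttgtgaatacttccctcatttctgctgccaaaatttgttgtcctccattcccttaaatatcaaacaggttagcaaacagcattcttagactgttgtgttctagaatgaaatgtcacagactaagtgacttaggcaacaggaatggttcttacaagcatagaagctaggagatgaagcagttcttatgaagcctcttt
The Sox13 promoter had 40 CpGs and a G+C content of 73.3%, and 93.3% of all promoters had the same content or less. This Sox6 promoter had 13 CpGs and 63.3% G+C, and the other 5 Sox6 promoters had 36.7% to 47.0% G+C. The Sox5 promoter had 3 CpGs and 39.7% G+C, against medians of 13 CpGs and 56.3% over all promoters. It belongs to a start inside the gene and not to the 5' boundary of Sox5, for which no promoter is listed.

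Peaks at the 3 printed promoters were weak or absent. The score of a peak is the authors' own value, in the MACS format minus 10 times the log10 of the p-value, and the lowest in the ATAC lists was about 50. Over the Sox13 promoter, chr1:133423819-133424730 had a peak in both uninduced EPC lists (65.9 and 69.2) and in induced EPC list 2 (57.2). Induced EPC list 1 and all 4 CPC lists had none, so the 3 peaks were all from EPC and all close to the lowest score. Over the Sox6 promoter, chr7:116030661-116031878 had a peak in induced CPC list 2 (55.1) and uninduced EPC list 1 (54.7) and in no other list. The printed Sox5 promoter, at a start inside the gene, had no ATAC peak in any list. At the 5' boundary of the Sox5 gene, chr6:144781058-144782631 had a peak in 7 of 8 lists, with scores of 108 and 118 in uninduced CPC, 162 and 179 in induced CPC, 114 in uninduced EPC list 1, and 308 and 198 in induced EPC. Uninduced EPC list 2 was the one without a peak, and the induced scores were higher than the uninduced ones in both cell types. The share of all regions with this order of scores was not counted.

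Both strands of the 300 bases were searched for ACAAT, for the longer AACAAT, which contains it, and for AACAAAG. The Sox13 promoter and the printed Sox6 promoter held none of them. The printed Sox5 promoter held ACAAT at bases 97 to 101, counted from its 5' base. A Sox6 promoter farther inside the gene, chr7:115824661-115824960, held AACAAT at bases 15 to 20 and, on the opposite strand, at bases 26 to 31, and had no ATAC peak. Of the other 4 uncovered Sox6 promoters, 3 held AACAAAG and 2 held ACAAT, with 1 holding both. Of all promoters of this length, 27.7% held ACAAT, 9.05% AACAAT and 5.01% AACAAAG. A match is a string of letters and not a measured site.

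Tagged Sox7 had peaks at Sox5 and Sox13 in several induced lists, and no uninduced or input list had a peak in any of the 3 windows. An induced site was defined by peaks in 3 or 4 of the 4 induced lists and none without doxycycline. Of the 8 ChIP regions, 2 met this rule, beside 5.17% of all ChIP regions, and nothing can be read from that count because the genes were picked on such peaks. Induced lists 1 to 4 had peaks at 4, 2, 7 and 1 of the 8 regions. List 3, with 7, was also the longest list, and list 4, with 1, the shortest.

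Inside Sox5, the induced site chr6:144454051-144455105 lay 328 kb from the 5' end. Its scores were 141, 154 and 254 in induced lists 1, 2 and 3, and list 4 had no peak. They stood at or above 77.3%, 77.4% and 88.8% of the peaks of those lists. The authors' deposited Sox7 list holds this site as chr6:144454092-144455071. The second Sox5 region, chr6:144670619-144671399, 111 kb from the 5' end, had a peak in induced list 3 alone (68.3).

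Inside Sox13, the induced site chr1:133397383-133398433 lay 26.6 kb from the 5' end and was the only one of the 8 regions with a peak in all 4 induced lists. Its scores were 57.4, 50.1, 134 and 81.2. In lists 1, 2 and 3 they were lower than at the Sox5 site, and in list 2 the peak stood at or above only 24.5% of its list. The authors' deposited list holds it as chr1:133397395-133398313. With peaks under a score of 100 left out, or with the ChIP lists cut to equal length, it no longer met the rule, and the Sox5 site did. On the 5' side of Sox13, chr1:133447990-133449026, 23.5 kb outside the gene, had a peak in induced lists 1 (52.3) and 3 (95.1). It fell 1 list short of the rule and is nonetheless in the authors' deposited Sox7 list, as chr1:133448047-133448828. The last 2 Sox13 regions, chr1:133411229-133412226 inside the gene and chr1:133434035-133434980 at 9.58 kb outside its 5' end, had a peak in induced list 3 alone, with scores of 59.03 and 47.4.

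At Sox6 no region met the rule and none is in the authors' deposited Sox7 list. Its 2 ChIP regions came from 1 induced list each, chr7:115829975-115830947 from list 3 (56.7) and chr7:115979716-115980518 from list 1 (49.4). The lowest score in the induced ChIP lists was about 40. These 2 peaks stood at or above 37.05% of list 3 and 30.4% of list 1. Of the 117 regions in the authors' deposited list of Sox7 regions shared with Gata4, 0 lay in the 3 windows.

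**Figure D1:**
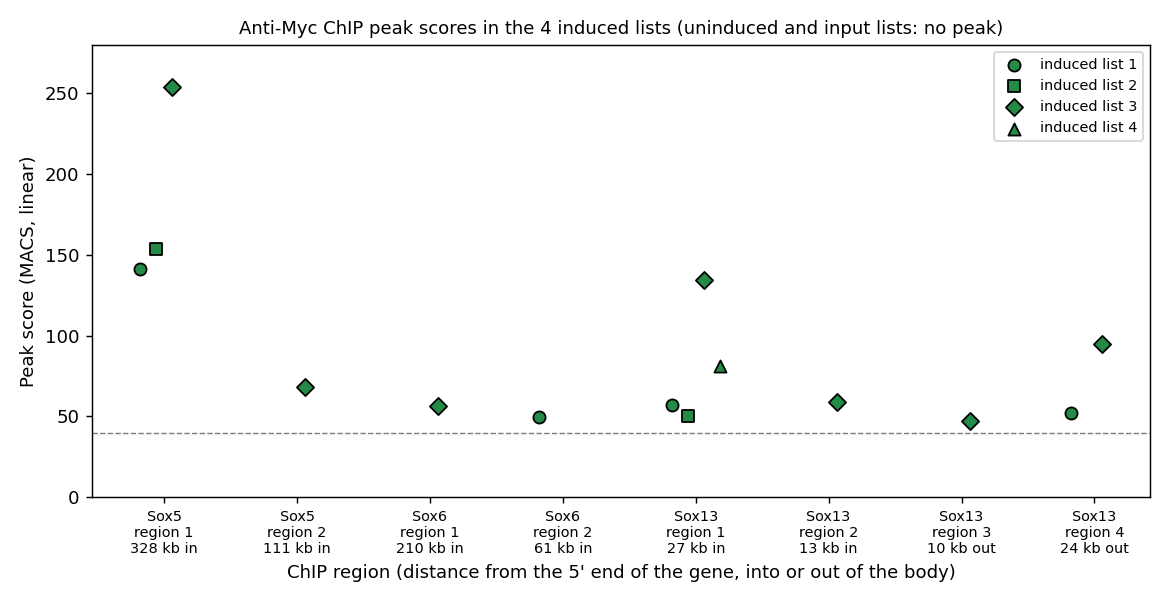
Score of each anti-Myc ChIP peak (linear axis) in the 8 ChIP regions of Sox5, Sox6 and Sox13, with a marker shape for each of the 4 induced lists and a dashed line at the lowest score of about 40. The Sox5 site 328 kb into the gene has the 3 highest points (141, 154 and 254), and the Sox13 site 26.6 kb into the gene is the only region with a point from all 4 lists.

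Chromatin under the ChIP peaks was accessible at Sox5 and Sox13. Both Sox5 regions and all 4 Sox13 regions overlapped an ATAC region, and neither Sox6 region did, which is 6 of 8, beside 52.5% of all ChIP regions. The 6 ATAC regions had a peak in 0 and 0 cases in the 2 uninduced CPC lists and in 5 and 6 cases in the induced ones. In EPC the cases were 2 and 2 before induction and 6 and 6 after it. The other 38 SOXD regions had a peak in 14 and 8 cases in uninduced CPC, 15 and 15 in induced CPC, 10 and 11 in uninduced EPC, and 15 and 18 in induced EPC. Among these 38 the induced lists were again higher in both cell types, by a smaller share of the regions.

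Across the genome, 1659 ATAC regions lay on a ChIP region seen in induced lists only. Of these, 38.3% and 33.6% had a peak in the uninduced CPC lists, 70.7% and 67.8% in the induced CPC lists, 52.6% and 44.5% in the uninduced EPC lists, and 81.2% and 83.8% in the induced EPC lists. The SOXD regions on such peaks moved in the same direction in both cell types, but they belong to this set. The genes were also picked on such peaks, so nothing is read from the shared direction. These SOXD regions numbered 6 of 44, beside 3.24% of all ATAC regions.

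The ATAC region over the Sox5 site, chr6:144453200-144455159, contained all 1055 bases of the ChIP region. Its scores were 349.8 and 339.9 in induced CPC and 233 and 158 in induced EPC, and no uninduced list of either cell type had a peak. The region over the Sox13 site, chr1:133397477-133398501, shared 957 bases with the ChIP region. It scored 129 and 138 in induced CPC and 106 and 183 in induced EPC, again with no uninduced peak. A peak in every induced list and in no uninduced list of both cell types was found at 1.16% of all ATAC regions. The genes were picked on such peaks, so nothing is read from the pattern at these sites.

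Under the second Sox5 ChIP peak, chr6:144670159-144671577 was already accessible in EPC without doxycycline. Its scores were 389 and 323 in uninduced EPC and 888 and 857 in induced EPC, and 124 and 177 in induced CPC, while both uninduced CPC lists had no peak. Every EPC score was higher than every CPC score, and the induced EPC scores stood at or above 89.3% and 88.7% of their lists. How many of all regions have their scores so ordered was not counted. On the 5' side of Sox13, chr1:133448071-133449076 was present in the same 6 lists. It scored 87.8 and 73.5 in uninduced EPC, 225 and 223 in induced EPC, and 282 and 159 in induced CPC. Of the 9 SOXD regions gained in CPC, these 2 had a peak in both uninduced EPC lists, beside 16.8% of all CPC gains.

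The last 2 regions on ChIP peaks were at Sox13 and weaker. Outside its 5' end, chr1:133434000-133435174 scored 83.8 and 90.2 in induced CPC and 118 and 137 in induced EPC, with no uninduced peak. Inside the gene, chr1:133411351-133412177 scored 60.4 in induced CPC list 2 and 58.99 and 90.8 in induced EPC. Induced CPC list 1 and all uninduced lists lacked it.

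**Figure D2:**
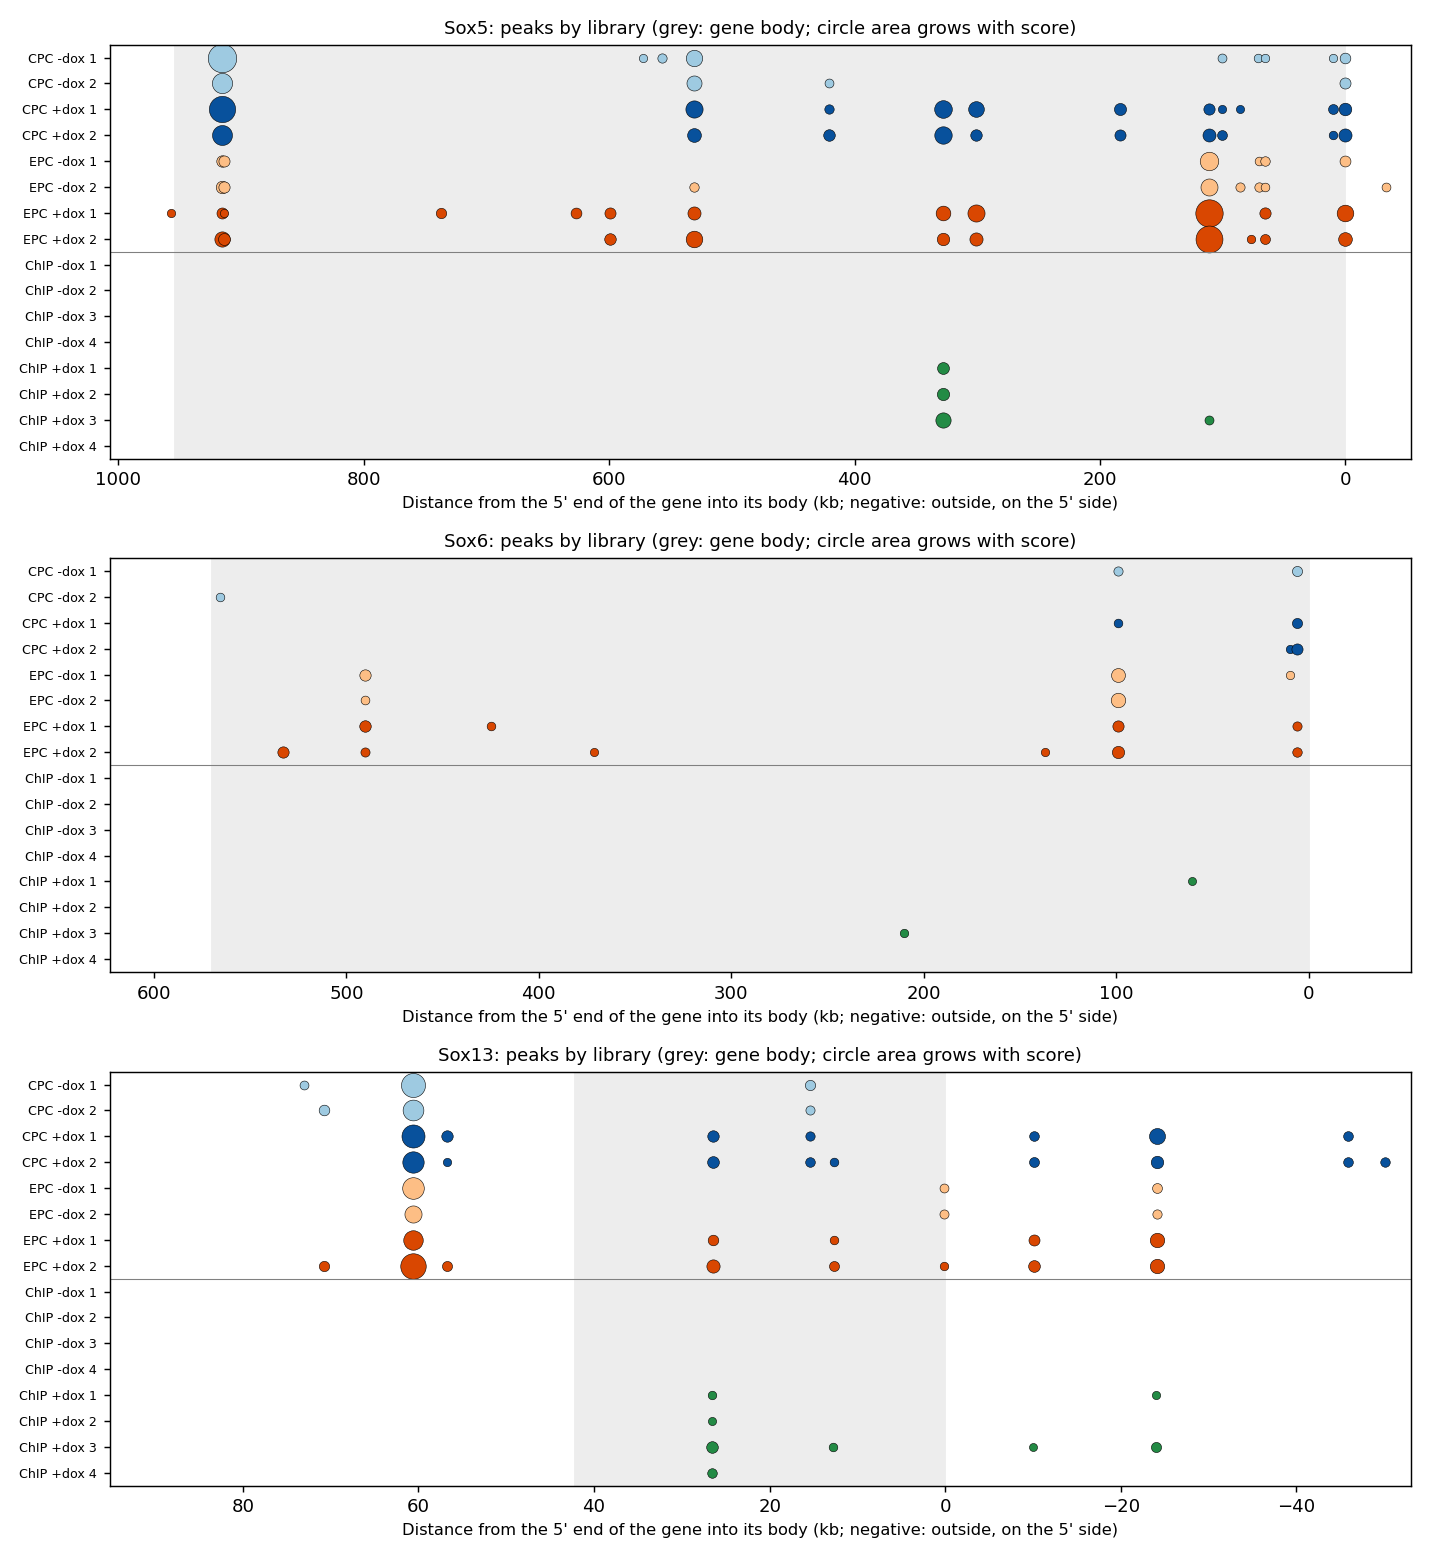
Peaks at Sox5, Sox6 and Sox13 by library, placed by distance in kb from the 5' end of the gene (linear axis, grey for the gene body), with circle area growing with the peak score; the input list had no peak and is not drawn. Green ChIP circles stand in induced rows only, and below the ATAC circles at 328 kb and 111 kb in Sox5 and at 26.6 kb in Sox13, whereas the 2 Sox6 ChIP circles have no ATAC circle above them.

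Regions that appeared with induction lay mostly at Sox5 and Sox13. A gained region has a peak in both induced lists of a cell type and in neither uninduced list, and a lost region the reverse. In CPC, 9 SOXD regions were gained, 4 at Sox5, 0 at Sox6 and 5 at Sox13, which is 20.5% of the 44, beside 5.75% of all regions. None was lost in CPC, beside 2.35% of all regions, but 2 were without uninduced CPC replicate 1 and 5 without replicate 2. In EPC, 7 were gained, 3 at Sox5, 1 at Sox6 and 3 at Sox13 (15.9%, beside 6.12%), and 1 was lost, at Sox5 (2.27%, beside 1.82%). Gained in both cell types were 4 regions, 2 at Sox5 and 2 at Sox13 (9.09%, beside 1.16%). With peaks under a score of 100 left out, 2 of the 5 CPC gains at Sox13 and all 4 at Sox5 were still called, and the EPC gain at Sox6 was not. Without induced EPC replicate 1 or 2, the EPC gains numbered 13 or 11, and the EPC losses numbered 3 or 2 without uninduced EPC replicate 1 or 2, and 2 without induced EPC replicate 2. These contrasts were used to choose the genes, so the shares stand beside each other and nothing is read from them.

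The authors' deposited lists of regions found only after induction hold 9 entries in the 3 windows for CPC and 7 for EPC. All 9 and all 7 overlap a region gained in the same cell type here. Their scores equal those of induced list 1 of that cell type, so the overlap comes from the same peaks and is not separate support. Of the 9 CPC gains, 5 lay on a ChIP region seen in induced lists only, beside 13.7% of all CPC gains. Of the 7 EPC gains it was 4, beside 13.2% of all EPC gains. The gains in either cell type numbered 12, and 6 of them were the regions on ChIP peaks described above.

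The other 6 gains had no ChIP peak. Inside Sox5, chr6:144480406-144481883, 301 kb from the 5' end, scored 269 and 130.2 in induced CPC and 328 and 181 in induced EPC, with no uninduced peak. It was thus gained in both cell types, as was the region over the induced Sox5 site. Closer to the 5' end, at 184 kb, chr6:144598372-144598959 was found only in induced CPC (148 and 121), and at 599 kb chr6:144182814-144183815 only in induced EPC (119.8 and 132). These 2 regions had peaks in 1 cell type each.

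At Sox13, chr1:133469895-133470741, 45.4 kb outside the 5' end, was found only in induced CPC (84.6 and 83.5). On the 3' side, chr1:133367224-133368202 had peaks in induced CPC (129 and 53.2) and induced EPC list 2 (93.2). It lies inside the neighbouring gene Etnk2, 14.1 kb outside Sox13. With only the gene bodies counted, 5 CPC gains remained, 4 in Sox5 and 1 in Sox13, so 4 of the 5 Sox13 gains lay in flanking DNA. In Sox6, chr7:116034162-116035104, 6.14 kb from the 5' end, was gained in EPC (72.6 and 78.8). The same region had a peak in uninduced CPC list 1 (93.8) and both induced CPC lists (95.2 and 121), so it was not limited to induced cells.

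The region lost in EPC, chr6:144711654-144712289 in Sox5 at 70.3 kb from the 5' end, had low scores of 61.0 and 74.8 in the uninduced EPC lists. No other list had a peak there.

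**Figure D3:**
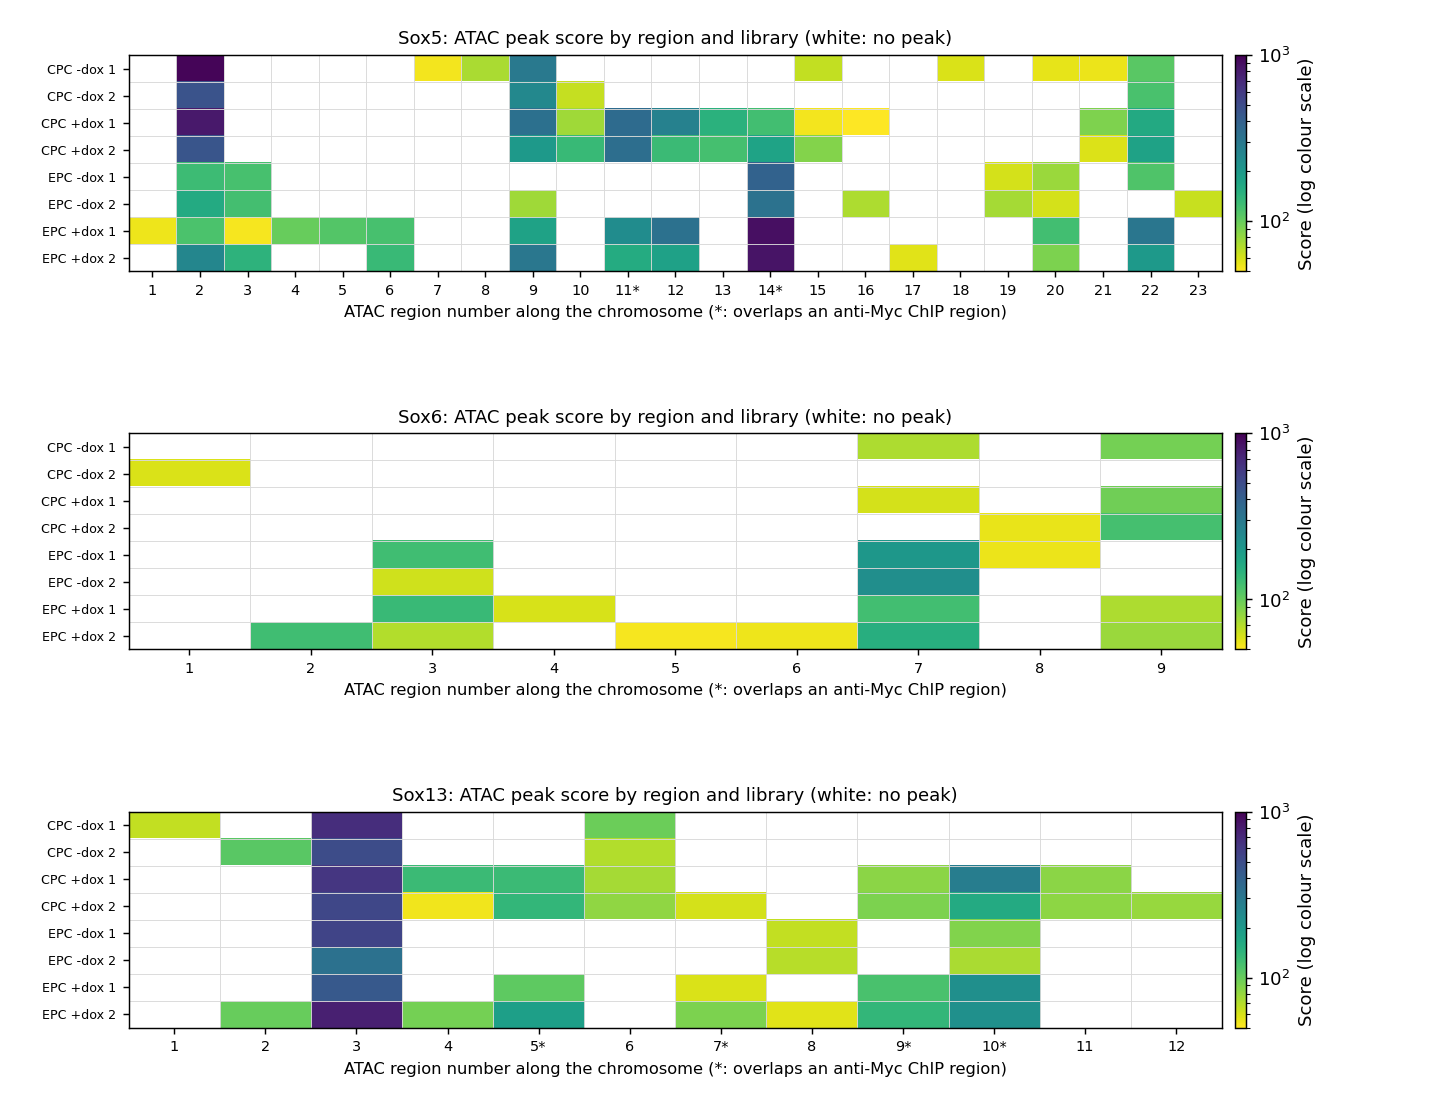
Score of each ATAC peak (log colour scale) in the 44 SOXD regions, numbered along the chromosome, in the 8 libraries; white means no peak, and a star marks the 6 regions that overlap a ChIP region. At Sox5, regions 11 and 12 are coloured in all 4 induced rows and white in all 4 uninduced rows, as are regions 5 and 9 at Sox13.

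A difference between the cell types was seen at the far 3' end of Sox5. The region chr6:143866093-143867827, 915 kb from the 5' end, was in all 8 lists, with scores of 959 and 467 in uninduced CPC, 814 and 454 in induced CPC, 128 and 159.6 in uninduced EPC, and 117 and 253 in induced EPC. All 4 CPC scores were above all 4 EPC scores, with or without doxycycline. The share of all regions that separate the cell types in this way was not counted, so this is a description of 1 region. Ranked within each list, the peak stood at or above 82.4% to 91.7% of peaks in CPC and 41.5% to 64.4% in EPC. Its neighbour chr6:143868142-143869601 had the opposite pattern, with peaks in all 4 EPC lists (119.6, 123, 52.0 and 144) and in no CPC list. The 2 regions lie side by side without touching.

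Regions with a peak in all 4 lists of 1 cell type and none of the other were few. The EPC-only regions were 2, the one just named and chr7:115550234-115551161 in Sox6, 490.1 kb from the 5' end (126, 62.4, 131 and 70.9), which is 4.55% of the 44, beside 2.10% of all regions. The single CPC-only region, chr1:133408584-133409608 in Sox13, had scores of 98.5 and 70.4 without and 74.9 and 82.3 with doxycycline, and 1 of 44 stands beside 1.80% of all regions. Without uninduced CPC replicate 1 or 2 the CPC-only regions numbered 2 or 3. With peaks under a score of 100 left out, none of these 3 regions was still called, and in lists of equal length neither EPC-only region was. None of the 3 separated induced from uninduced lists. In Sox6 the highest scores were at chr7:115941506-115942562, with 206 and 226 in uninduced EPC and 123 and 153 in induced EPC. There, 1 uninduced (71.9) and 1 induced (60.6) CPC list had a lower peak.

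A further Sox5 region, chosen after its values were seen, was in 7 of 8 lists. At 531 kb from the 5' end, chr6:144250423-144251897 scored 299 and 246 in uninduced CPC, 331 and 201 in induced CPC, 76.7 in uninduced EPC list 2, and 179 and 305 in induced EPC. Uninduced EPC list 1 alone had no peak, and the induced EPC scores were above the uninduced one, while the CPC groups overlapped. Nearer the 5' end, chr6:144716121-144716967 had a peak in all 4 EPC lists (78.9, 60.4, 124 and 89.8) and a low one in uninduced CPC list 1 (55.9), which kept it from being EPC only.

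Few SOXD regions were shared by all libraries. A peak in all 8 lists was found at 2 of 44 regions (4.55%), beside 25.5% of all regions. Beside the Sox5 region above, this was chr1:133362843-133364730, which lies at the lower boundary of Etnk2, 17.6 kb outside Sox13. It scored 675 and 497 in uninduced CPC, 620 (619.7) and 528 in induced CPC, 540.2 and 328 in uninduced EPC, and 435 and 765 in induced EPC. In contrast, 15 of 44 regions had a peak in 1 list only, beside 26.7% of all regions, and they were 8 of 23 at Sox5, 5 of 9 at Sox6 and 2 of 12 at Sox13. Their scores ran from 52.3 to 125. No region that was in every list lay inside Sox6 or Sox13.

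Counted per library, the induced lists held more SOXD regions than the uninduced ones. The number with a peak was 14 and 8 in uninduced CPC, 20 and 21 in induced CPC, 12 and 13 in uninduced EPC, and 21 and 24 in induced EPC, so induced and uninduced lists did not overlap in either cell type. At Sox13 it went from 3 ± 0 to 8 ± 1.41 regions in CPC and from 3 ± 0 to 6.5 ± 2.12 in EPC (mean ± SD, n = 2 libraries). At Sox5 the means were 6.5 ± 3.54 and 10.5 ± 0.707 in CPC and 7 ± 1.41 and 11 ± 1.41 in EPC. Sox6 had 1.5 ± 0.707 and 2 ± 0 in CPC, where the lists overlapped, and 2.5 ± 0.707 and 5 ± 1.41 in EPC.

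The lists themselves differed in length in the same direction. Over all regions, 26884 and 22182 had a peak in uninduced CPC, 28440 and 27162 in induced CPC, 27255 and 22805 in uninduced EPC, and 28079 and 30038 in induced EPC.  With all lists cut to the same length by score, 8 SOXD regions were gained in CPC and 6 in EPC, and the same 4 in both. Of all regions in those cut lists, 4.65% were gained in CPC, 4.59% in EPC and 0.914% in both. The number of SOXD regions left in the cut lists was not counted, so the SOXD counts have no share to set beside these. The calls lost were chr1:133367224-133368202 in CPC and chr1:133411351-133412177 in EPC, both near or in Sox13.

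**Figure D4:**
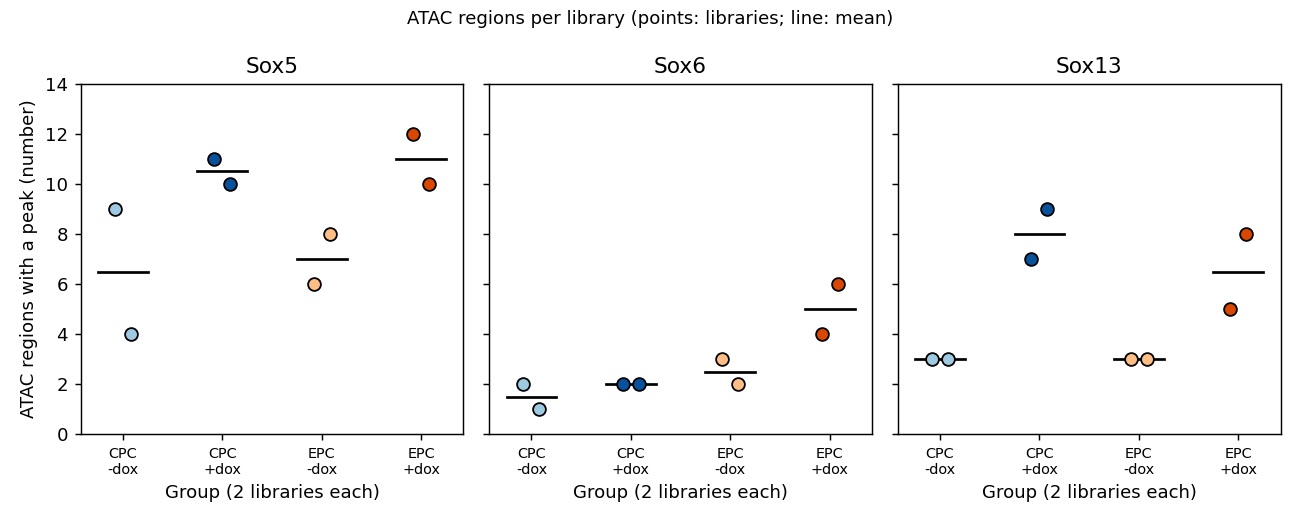
Number of ATAC regions with a peak (linear axis from 0) at Sox5, Sox6 and Sox13 in each library, with a point for each of the 2 libraries of a group and a line at their mean. Induced points lie above uninduced points of the same cell type at Sox5 and Sox13, and at Sox6 in EPC only.

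Per length, the 3 genes differed in how densely accessible regions lay. Sox13 had 8.44 regions per 100 kb of gene body and flanks, Sox5 2.18 and Sox6 1.34. Over all 21887 protein-coding genes the median was 3.01, with quartiles of 1.50 and 5.34. Sox13 was thus above the upper quartile, Sox5 between the lower quartile and the median, and Sox6 below the lower quartile. Of the 44 regions, 34 lay inside a gene body, 21 of 23 at Sox5, 9 of 9 at Sox6 and 4 of 12 at Sox13.

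The 50 kb limit cut off a further site at Sox13. The last region inside, chr1:133474114-133474902 at 49.7 kb, had 1 peak, in induced CPC list 2 (79.8). The first one beyond, chr1:133492024-133494151 at 67.6 kb, had peaks in both induced CPC lists and all 4 EPC lists, with scores from 183 to 494, and overlapped a ChIP region, chr1:133491872-133494095, with peaks in induced lists 1, 3 and 4 (58.1 to 277). Sox13 is the nearest protein-coding gene to it. At Sox5 the last region inside, chr6:144814782-144815506, and the first beyond, chr6:143757227-143757843, had 1 low peak each (64.7 and 50.0). At Sox6 no region lay in the flanks, and the first beyond, chr7:116092515-116093962, was in all 8 lists (492 to 883) and inside 1110004F10Rik.

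The counts per gene can be set beside those of all 21887 protein-coding genes. At least 1 region gained in CPC lay in the window of 18.5% of genes, and Sox5 and Sox13 were among them. A region gained in EPC was found at 19.6% of genes, which included all 3. A region gained in both was found at 3.82%, and 2 or more, as at Sox5 and Sox13, at 0.238%. Windows with 3 or more EPC gains, as at Sox5 and Sox13, were 0.658% of all, and an induced ChIP site lay in 1.88%. With 5 or more CPC gains there were 8 genes (0.0366%), Adgrv1, Ank2, Cntnap2, Greb1, Macrod2, Psd3, Sox13 and Tiam2. Their windows spanned 231 to 2341 kb apart from that of Sox13, which was the smallest at 142 kb. A longer window can hold more regions, and that of Sox5 spanned 1054 kb. The limit of 5 is the count at Sox13 itself. Sox13 had 4 CPC gains in lists of equal length, 2 at a score of 100 or more and 1 in the gene body only. The other genes were not recounted under these settings. The 3 SOXD genes were picked on such gains and peaks, so nothing is read from these shares.

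Each of the 17 other SOX genes had fewer gains than Sox5 and Sox13, and a smaller window. Sox6, with 0 CPC gains and 1 EPC gain, was within their range. Of the 17, 4 had a CPC gain (Sox4, Sox7, Sox17 and Sox18, 1 each) and 6 an EPC gain (Sox1, Sox7, Sox11, Sox12 and Sox15 with 1 each, and Sox10 with 2). Sox7 alone had a region gained in both. DNA of the induced transgene may be counted at this gene, and whether the region lies in sequence that the 2 share was not checked. A ChIP region lay at Sox3, Sox7, Sox15, Sox18 and Sox30, and none of these was an induced site, while 25.9% of all genes had a ChIP region. The numbers of ATAC regions at the 17 genes ran from 0 to 11 with a median of 5, against 23, 9 and 12 at Sox5, Sox6 and Sox13. Sox15 and Sox18 had a region lost in EPC, beside 7.07% of all genes.

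**Figure D5:**
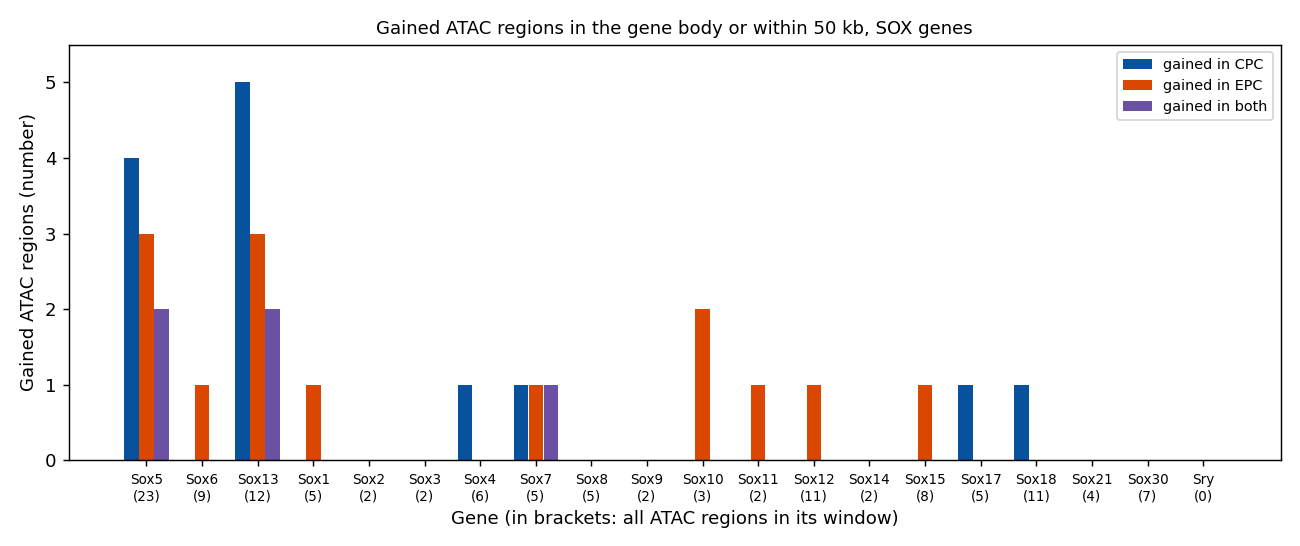
Number of ATAC regions (linear axis from 0) gained in CPC, in EPC and in both, for Sox5, Sox6, Sox13 and the 17 other SOX genes, with all ATAC regions of the gene's window in brackets. Sox13 (5 and 3) and Sox5 (4 and 3) have the tallest bars, and no other SOX gene has more than 2.

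Of 13 cartilage genes that SOXD proteins act on together with Sox9, a CPC gain lay at Col9a1 and Col11a2, which encode minor cartilage collagens, and an EPC gain at Col9a1 and Col2a1, the main cartilage collagen. Each is 2 of 13, near the 18.5% and 19.6% of all genes given above, so the counts say nothing about this group. Acan, the large cartilage proteoglycan, had a region lost in CPC, beside 8.36% of all genes. Col9a2 had an induced ChIP site, beside 1.88% of all genes. Sox9 had 2 ATAC regions, of which none was gained, and no ChIP region.

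Erythroid genes tied to Sox6 included Hbb-y and Hbb-bh1, the embryonic globins, whose windows overlap. Of 5 genes, a CPC gain was found at Hbb-y, Hbb-bh1, Klf1 and Gata1, and an EPC gain at Bcl11a and Gata1, beside 18.5% and 19.6% of all genes. Regions limited to EPC lay at Hbb-y, Hbb-bh1 and Gata1, beside 7.58% of all genes. In the overlap of windows the same region can count for both globin genes, so nothing is read from these counts. No ChIP region lay at any of the 5, beside 25.9% of all genes. Of 5 genes for proteins that bind SOXD factors, Tcf7 had a CPC gain and none had an EPC gain, beside 18.5% and 19.6% of all genes. Prox1 had 3 ChIP regions, of which 1 was an induced site. Ddx5 had 2 ChIP regions, neither of them an induced site. A ChIP region thus lay at 2 of the 5 genes, beside 25.9% of all genes, and an induced site at 1, beside 1.88%. With 5 genes, nothing is read from these counts.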

How the data were processed

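Peak lists of 9 ChIP and input and 8 ATAC libraries were used. Per the submitters' processing notes the build was mm10 and the tools included Bowtie2, SAMtools, bedtools, Trimmomatic and MACS 1.4, with no role given. The score of each peak is the authors' deposited value. The authors' derived lists of induced-only ATAC peaks also carry a score, and their Sox7 and Sox7 with Gata4 lists give coordinates alone, per the file columns. Peaks were merged per assay at an overlap of 1 bp or more and set in classes by presence in each list, in Python 3.11.15 with numpy 2.4.6, and drawn with matplotlib 3.10.9. The class rules were checked on simulated lists. Gene and promoter positions came from RefSeq GRCm38.p6. Depth is unknown, and replicates may be technical.

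The members and lists were chosen with earlier results of these data known. Named were all induced sites, regions in the authors' Sox7 list or gained in both cell types, up to 3 per gene and class by mean score, regions at starts and those beside the 50 kb limit. Others were named to complete a count, after their values were seen. Alternatives were a score minimum of 100, lists of equal length, merging across gaps of 200 bp, gene bodies only, a 100 kb window, other ChIP rules and leaving out each replicate. Protein sequences and RNA-seq were not used here.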

Additional observations from a re-analysis of the deposited data

How the results depend on the processing

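CPC gains numbered 9, and 5 in gene bodies only, 5 to 10 over the 6 alternatives, and 9 to 12 with a replicate left out. EPC gains numbered 7, 5 to 7 over the alternatives and 7 to 13 with a replicate left out (13 without induced EPC replicate 1, 11 without replicate 2). At a score of 100 or more they again numbered 7, but not the same 7. There chr7:116034162-116035104 and chr1:133411351-133412177 were no longer called, and other regions were called instead. Gains in both numbered 4, with 3 to 4 and 4 to 5. The 4 at a score of 100 or more did not include chr1:133434000-133435174. CPC losses went from 0 to 5 without uninduced CPC replicate 2 and to 2 without replicate 1. EPC losses went from 1 to 0 at a score of 100 or more and to 0 in lists of equal length, and to between 1 and 3 with a replicate left out (3 without uninduced EPC replicate 1, 2 without uninduced EPC replicate 2 or induced EPC replicate 2). CPC-only regions went from 1 to 0 at a score of 100 or more, and to between 1 and 3 with a replicate left out (3 without uninduced CPC replicate 2, 2 without replicate 1). EPC-only regions went from 2 to 1 at a score of 100 or more and to 1 in lists of equal length, and in both settings neither of the 2 named regions was still called. Regions in every list went from 2 to 1 in gene bodies only and to 4 with a 100 kb window. Induced ChIP sites went from 2 to 1 at a score of 100 or more, to 1 in lists of equal length and to 1 when 4 of 4 lists were required, with 2 to 3 when a replicate was left out. The Sox5 site was lost under the last of these and the Sox13 site under the first 2. The cause was not tested. An alternative with presence at a score of 100 and absence only without any peak was added after the data were seen. Sox5 regions at chr6:144453200-144455159 and chr6:144480406-144481883 and the Sox13 region at chr1:133397477-133398501 stayed gained in both cell types under all 6 alternatives and all 8 settings without a replicate. The fourth, chr1:133434000-133435174, did so under 3 of 6. Depth is unknown, so absent peaks near the lowest score cannot be read as closed sites. No paired analysis was possible because no result comes from a test.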
